A study of Homo sapiens with 2 samples.

Results

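Transcripts of 9 genes for oxidation outside the cytochrome P450 enzymes were measured in HepG2, a cell line from a human hepatocellular carcinoma, treated with the polyherbal preparation PADMA28 or with its solvent. The genes were taken by name and comprise the flavin-containing monooxygenases FMO1, FMO2, FMO4 and FMO5, the monoamine oxidases MAOA and MAOB, the molybdenum enzymes AOX1 (aldehyde oxidase) and XDH (xanthine dehydrogenase), and POR, the reductase that passes electrons from NADPH to microsomal P450 enzymes. They are 9 of the 19775 genes that had a probe set of their own, and 18 of the 54675 probe sets of the array were annotated to them. Of the 9 genes, 3 had 1 probe set, 3 had 2 and 3 had 3, and none of these probe sets was shared with another gene.

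The treated cells received the ethanolic extract at 218 μg/ml and the control cells 0.9% ethanol (EtOH), both for 18 h in medium with 10% serum. Both groups consisted of the unmodified line, with no transgene or deletion named in the labels. Cells of 3 cultures were pooled for each treatment and their RNA was measured on 1 array (Affymetrix Human Genome U133 Plus 2.0). The values are GCRMA expression values on the log2 scale, and a difference is the PADMA28 value minus the EtOH value. With 1 array per treatment there was no spread between samples, no test was made, and a change in the cultures cannot be told apart from an effect of the extract. The labelled cell type was borne out by its markers, since all 8 measured hepatocyte markers, among them ALB and AFP, were well above background on both arrays. Their differences ranged from -0.55 to -0.05 with a median of -0.20 on the brightest probe sets, and of their dimmer probe sets 1 of ALB was at -1.07 and 1 of TF (transferrin) at -1.23, while the dimmest of ALB was at 0.27 and that of TF at -0.96. Of the 3 endothelial, 2 leukocyte and 4 stellate or fibroblast markers measured, PECAM1 and COL1A1 were above background on 1 of 5 probe sets each, and PDGFRB and ACTA2 on their brightest, with VWF, CDH5, PTPRC, CD3E and COL3A1 below it on both arrays. PDGFRB went from 5.94 to 5.33, a difference of -0.62, and ACTA2 was at -0.06.

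Flavin-containing monooxygenases of the endoplasmic reticulum use FAD, NADPH and oxygen to add an oxygen atom to soft nucleophiles such as amines and sulfides, and FMO5 differs from its relatives in acting on ketones in the manner of a Baeyer-Villiger enzyme. Monoamine oxidases are FAD enzymes of the outer mitochondrial membrane that deaminate serotonin, dopamine and dietary amines and release hydrogen peroxide. AOX1 and XDH are related cytosolic enzymes that carry a molybdenum cofactor, iron-sulfur clusters and FAD. AOX1 oxidises aldehydes and aromatic nitrogen heterocycles, and XDH turns hypoxanthine into xanthine and uric acid.

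FMO5 was the member that changed most, and it fell with PADMA28 on each of its probe sets. A probe set was counted as well above background from 2 log2 units over the most frequent value of its array, which is 4.25 for EtOH and 4.35 for PADMA28. By this limit FMO5, MAOA, MAOB, AOX1 and POR were above background on both arrays, 5 of the 9 genes, while FMO1, FMO2, FMO4 and XDH were below it on both. Over the whole array 52.4% of the genes were above background on at least 1 array. No member was more than 2-fold higher and FMO5 alone was more than 2-fold lower, where 0.875% of all genes were more than 2-fold higher and 0.384% more than 2-fold lower. Levels of different probe sets depend on the probes as well as on the transcript, so the genes were not ranked by level.

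**Figure D1:**
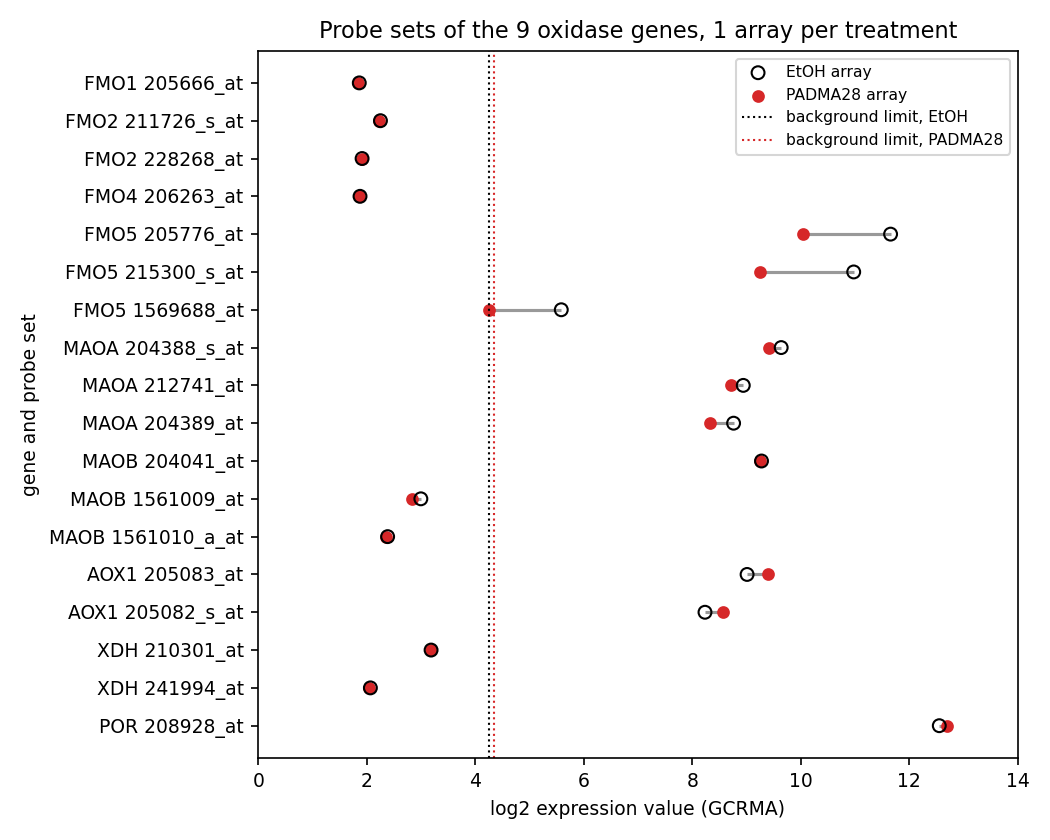
Log2 expression value (horizontal axis) of the 18 probe sets of the 9 genes (vertical axis), with open circles for the EtOH array, red points for the PADMA28 array and dotted lines for the background limits of 4.25 and 4.35. The 3 probe sets of FMO5 have the widest gaps between the arrays, and the probe sets of FMO1, FMO2, FMO4 and XDH lie to the left of the limits on both.

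The promoters of FMO5, MAOA and MAOB are shown because FMO5 was the gene that fell and the MAO genes are a neighbouring pair whose transcripts were both present. Each is the RefSeq sequence of the 250 bases before the annotated start in GRCh38.p14, written 5′ to 3′ on the strand of the gene, with capitals on matches to the GC box GGGCGG on either strand, the core of sites bound by Sp1-type factors. The FMO5 sequence is chr1:147225340-147225589 on the minus strand, with a GC content of 51.6%. That of MAOA is chrX:43656049-43656298 on the plus strand, with 63.2%, and that of MAOB is chrX:43882451-43882700 on the minus strand, with 72.0%.
FMO5: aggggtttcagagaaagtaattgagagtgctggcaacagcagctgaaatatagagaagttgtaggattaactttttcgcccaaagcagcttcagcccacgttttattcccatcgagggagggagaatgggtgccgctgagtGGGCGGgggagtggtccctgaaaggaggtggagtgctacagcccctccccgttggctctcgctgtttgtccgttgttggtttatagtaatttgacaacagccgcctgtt
MAOA: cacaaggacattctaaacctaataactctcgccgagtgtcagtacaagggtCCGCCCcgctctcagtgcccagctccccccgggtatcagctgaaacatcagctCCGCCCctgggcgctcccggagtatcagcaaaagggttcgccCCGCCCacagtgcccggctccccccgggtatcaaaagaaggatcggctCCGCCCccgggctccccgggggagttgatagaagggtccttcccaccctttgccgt
MAOB: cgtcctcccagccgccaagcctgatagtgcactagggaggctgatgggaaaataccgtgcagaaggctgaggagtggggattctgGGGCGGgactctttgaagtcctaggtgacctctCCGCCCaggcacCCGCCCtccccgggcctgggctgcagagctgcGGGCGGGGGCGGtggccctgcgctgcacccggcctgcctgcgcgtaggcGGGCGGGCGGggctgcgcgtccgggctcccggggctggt

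There was 1 GC box in the FMO5 sequence, 4 in that of MAOA and 7 in that of MAOB, where those with their first base at -39 and -35 overlap, counted back from the base before the start. Over all 35116 RefSeq windows of 300 bases, 250 before and 50 after a start, 45.0% held a GC box. Windows were at hand for 7 of the members, FMO1 having 2 of them, and not for FMO2 and POR. A GC box was in windows of 6 of these 7 genes, FMO1 (1 of its 2), FMO4, FMO5, AOX1, MAOA and MAOB, but not of XDH. The core GCGTG of the xenobiotic response element, to which the aryl hydrocarbon receptor binds, was found in those of FMO4 and MAOA, and in 36.5% of all windows. The core TGACNNNGC of the antioxidant response element was found in that of XDH alone, and in 13.3% of all windows. Both strands were searched. None of these letters besides the GC box was in the FMO5 window, which says nothing of factors that bind elsewhere.

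FMO5 is the FMO form known as prominent in adult human liver. Its brightest probe set, 205776_at, read 11.66 with EtOH and 10.05 with PADMA28, a difference of -1.61 or 3.05-fold lower. The probe set 215300_s_at read 10.98 and 9.24, which is -1.74 or 3.33-fold lower. The dim probe set 1569688_at went from 5.59 to 4.25, where it was below the background limit, which gives a fall of at least 2.36-fold. All 3 thus pointed the same way. The 2 brighter ones differed from each other by 0.13 in their log2 difference, close to the median gap of 0.14 between the 2 brightest probe sets of a gene over 4912 genes, whose 95th percentile was 0.59. Among the 10186 genes above background on both arrays, FMO5 was the 9th from the lowest difference, and 0.304% had an absolute difference at least as large.

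**Figure D2:**
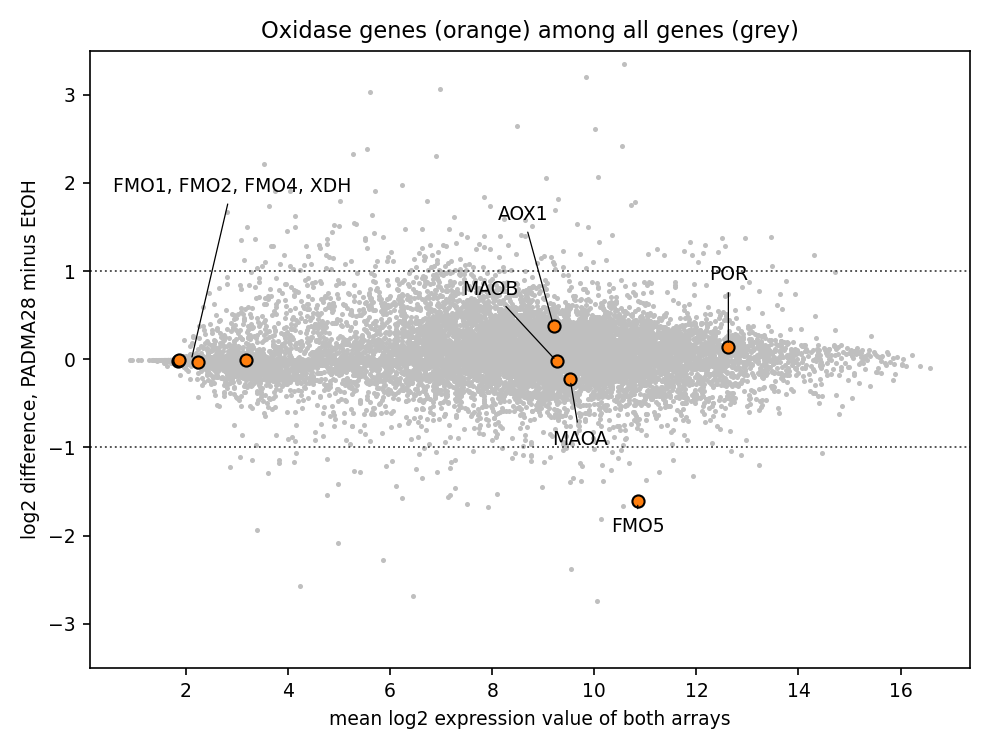
Log2 difference, PADMA28 minus EtOH (vertical axis), against the mean log2 value of both arrays (horizontal axis) for all 19775 genes in grey and the 9 members in orange, each at its brightest probe set, with dotted lines at 2-fold; 4 genes lie beyond 3.5 log2 units and are not drawn. FMO5 lies below the lower line at -1.61, while MAOA, MAOB, AOX1 and POR lie within 2-fold.

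The other FMO genes gave no signal above background. FMO1, the fetal liver and kidney form, read 1.86 with EtOH and 1.84 with PADMA28. FMO2, the lung form, read 2.25 and 2.23 on its brighter probe set and 1.91 and 1.91 on the other. FMO4 read 1.88 and 1.87. FMO1, FMO2 and FMO4 are neighbours in a cluster on chromosome 1, which does not hold FMO5, and the pseudogenes FMO6P and FMO9P were likewise below background. Differences of such dim probe sets are compressed by the method, with the 5th percentile of the 9414 genes below background on both arrays at -0.12 and the 95th at -0.01, so that values near 0 do not show that these transcripts were unchanged. No fold change is given for them.

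MAOA, which prefers serotonin and noradrenaline, was slightly lower with PADMA28 on all of its probe sets. The brightest, 204388_s_at, read 9.64 with EtOH and 9.41 with PADMA28, a difference of -0.23. The probe set 212741_at read 8.94 and 8.72, with a difference of -0.22, and 204389_at read 8.76 and 8.34, with -0.43. None reached 2-fold, and 41.7% of the genes above background on both arrays had a difference at least as large in size as that of the brightest.

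MAOB, which prefers phenylethylamine and benzylamine, did not separate the arrays. Its bright probe set 204041_at read 9.28 with EtOH and 9.25 with PADMA28, a difference of -0.02, and 90.7% of the genes above background on both arrays differed by at least as much. The probe sets 1561009_at and 1561010_a_at were below background on both arrays, at 3.00 and 2.83 and at 2.39 and 2.35. The difference between MAOA and MAOB in their response, -0.23 against -0.02, cannot be tested with 1 array per treatment.

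AOX1 was slightly higher with PADMA28. Its probe set 205083_at read 9.01 with EtOH and 9.39 with PADMA28, a difference of 0.38 or 1.30-fold, and 205082_s_at read 8.24 and 8.57, a difference of 0.33. The 2 probe sets differed by 0.05 in their log2 difference. Of the genes above background on both arrays, 21.8% changed at least as much in size. XDH was below background on both arrays, at 3.19 and 3.18 on its brighter probe set and at 2.07 and 2.04 on the other.

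POR has a single probe set, which read 12.55 with EtOH and 12.70 with PADMA28. The difference was 0.15, or 1.11-fold higher. Of the genes above background on both arrays 57.9% had a difference at least as large in size, and their median absolute difference was 0.18.

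**Figure D3:**
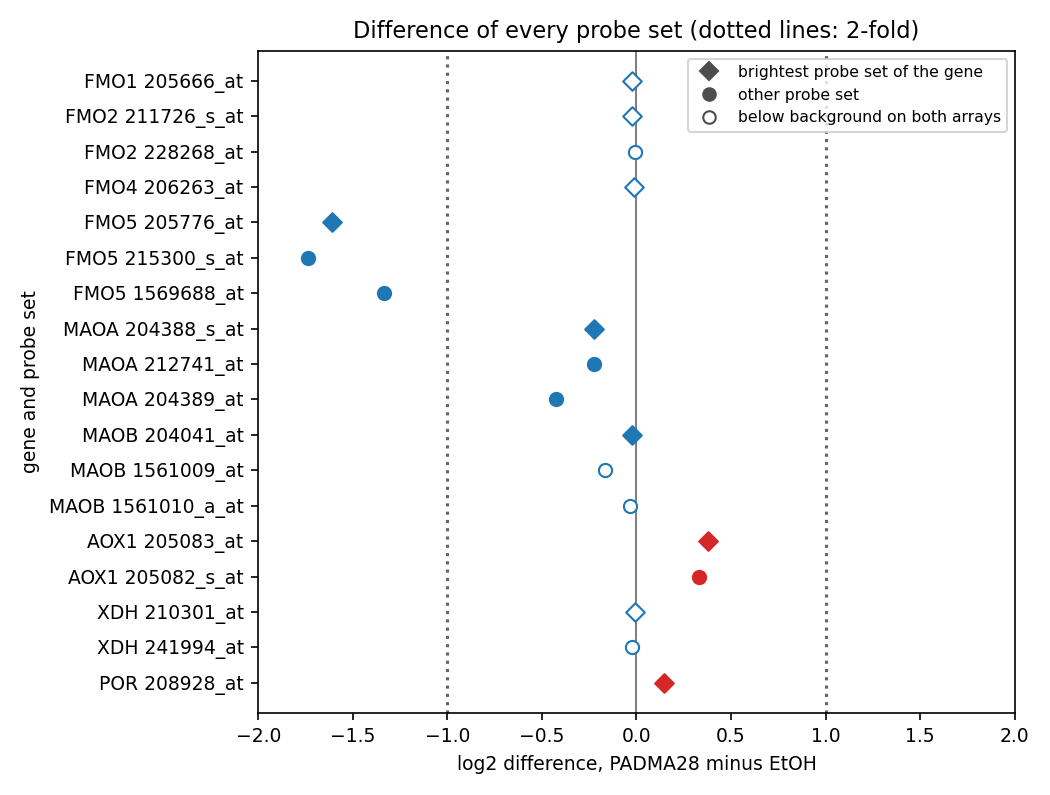
Log2 difference, PADMA28 minus EtOH (horizontal axis), of the 18 probe sets (vertical axis), with red for higher, blue for lower, diamonds for the brightest probe set of a gene, open symbols for values below both background limits and dotted lines at 2-fold. The 3 probe sets of FMO5 lie between -1.74 and -1.34, the dimmest of them below background with PADMA28, those of MAOA between -0.43 and -0.22 and those of AOX1 at 0.33 and 0.38.

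The genes around these enzymes were taken from 10 lists, described by their counts and medians. The median difference was -0.02 over all genes and 0.06 over the genes above background on both arrays, of which 58.3% had values above 0. It was -0.02 over the 9 members and -0.02 over the 5 above background. A list median is given over the genes measured and over those above background on at least 1 array.

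AOX1 and XDH need the molybdenum cofactor, and the list of its synthesis and of other molybdenum enzymes held 8 genes, all above background. Values were above 0 for 6 of them, with a median of 0.26, and MOCOS alone passed 2-fold. MOCOS, the sulfurase that adds the final sulfur to the cofactor of AOX1 and XDH, read 8.63 with EtOH and 9.74 with PADMA28, a difference of 1.11 or 2.15-fold. Its dimmer probe set read 4.58 and 5.20, a difference of 0.62, so MOCOS was within 2-fold at 0.86 by the median over its probe sets. MTARC2, a molybdenum enzyme of the mitochondrial outer membrane that reduces N-hydroxylated compounds, went from 7.40 to 8.38 on its brightest probe set, a difference of 0.98, and its others gave 0.997 and 0.92. GPHN (gephyrin), which inserts the metal, was at 0.32, 0.12 and 0.31. The lowest difference in the list was -0.26.

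Around XDH in purine breakdown and salvage, 8 of 10 genes were above background, 4 higher and 4 lower, with a median of -0.03 over the 10 and 0.07 over the 8. NT5E, the cell surface nucleotidase that makes adenosine from AMP, read 10.21 with EtOH and 8.82 with PADMA28 and was thus 2.63-fold lower. Its other probe sets were at -0.78, -0.44 and -0.13, so the size of the fall depended on the probe set, and by the median over them NT5E was within 2-fold at -0.61. ADA, which deaminates adenosine, was at 0.75, and AMPD2, an AMP deaminase, at -0.68. No gene of the list was more than 2-fold higher on its brightest probe set, and a probe set of ADA below background on both arrays was at 1.22.

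Among the electron carriers related to POR, none of 12 genes passed 2-fold and the median was -0.02, or 0.02 over the 8 above background. On the brightest probe sets, the largest values belonged to some genes of the cytochrome b5 system, from which much of the list was drawn. This system gives electrons to some P450 enzymes and to lipid desaturases. CYB5R4, a reductase that joins a cytochrome b5 domain to its flavin domain, read 6.95 with EtOH and 7.92 with PADMA28, a difference of 0.97 or 1.96-fold, whereas its other probe set was below background. CYB5A, cytochrome b5 itself, read 12.20 and 12.91, a difference of 0.72, and its other probe sets above background were at 0.78 and 0.83. CYB5R1 was at 0.34, while CYB5B was at 0.05, with -0.06, -0.11 and -0.05 on its other probe sets. CYB5R3, the main cytochrome b5 reductase, was at -0.04 and the diflavin reductases MTRR and NDOR1, of the same fold family as POR, at -0.02 and -0.01, though the other probe set of MTRR, likewise above background, was at 0.46.

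Of the enzymes outside drug metabolism that take their electrons from POR or act beside it in the same membrane, 6 were measured and their median was -0.20, or -0.36 over the 5 above background, of which 2 had values above 0 and 3 below. HMOX1, inducible heme oxygenase, was 4.15-fold higher and the only gene of this list past 2-fold. HMOX2 was at 0.58 and 0.48 on its probe sets. CYP7A1, the rate-limiting enzyme of bile acid synthesis, went from 7.24 to 6.29, a difference of -0.96, just short of 2-fold. SQLE, squalene epoxidase, and DHCR7, which forms cholesterol from its direct precursor, were at -0.36 and -0.46 on their brightest probe sets. The other probe sets of SQLE were at -0.09, -0.57 and -0.36, and that of DHCR7 was at -0.37.

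**Figure D4:**
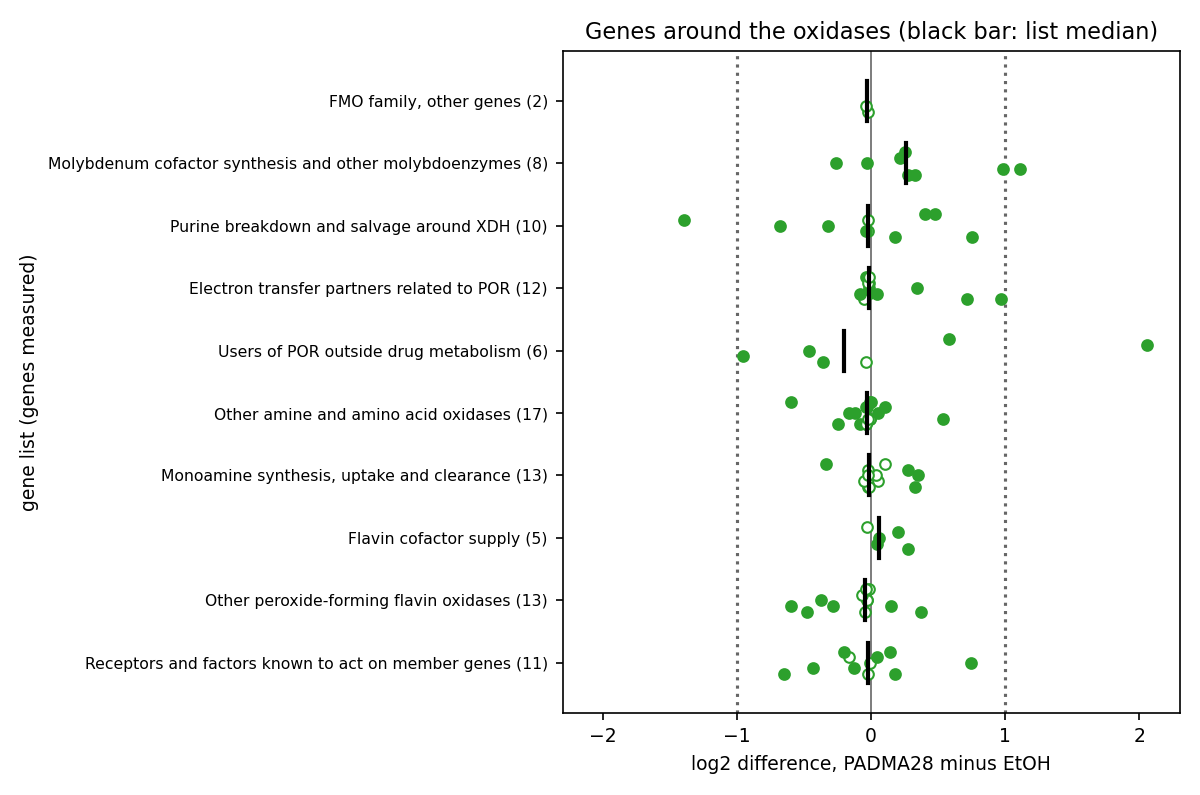
Log2 difference, PADMA28 minus EtOH (horizontal axis), of the genes in 10 lists around the oxidases (vertical axis, genes measured in brackets), each point a gene at its brightest probe set, open where it was below background on both arrays, with black bars at list medians and dotted lines at 2-fold. HMOX1 at 2.05, MOCOS at 1.11 and NT5E at -1.39 lie outside the 2-fold lines, and the molybdenum cofactor list has the highest median, 0.26.

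Other oxidases and related enzymes, many but not all of which form hydrogen peroxide, were measured in a pair of lists. None of the 17 amine and amino acid oxidases passed 2-fold, with a median of -0.03, or -0.04 over the 11 above background. LOX, the lysyl oxidase that crosslinks collagen, was at -0.60, with -0.30 and -0.98 on its other probe sets. SMOX, spermine oxidase, was at 0.54 and PIPOX, which oxidises pipecolate and sarcosine, at -0.25. Of 13 other flavin oxidases none passed 2-fold and the median was -0.04. Over the 6 above background it was -0.33, with 4 of them below 0. QSOX1 and QSOX2, which form disulfides in secreted proteins, were at -0.60 and -0.38, though a second probe set of QSOX2 was at -0.04, and a probe set of QSOX1 below background with EtOH was at 0.31. ERO1A, the disulfide oxidase of the endoplasmic reticulum, was at -0.48, while its dimmer probe sets were at 0.03 and -0.04.

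The genes that make, carry and clear monoamines, the substrates of MAOA and MAOB, were mostly below background, with 4 of 13 above background and none past 2-fold. DDC, the decarboxylase that forms dopamine and serotonin, was at 0.35 and 0.22 on its probe sets. ALDH2, the mitochondrial dehydrogenase that takes up the aldehydes released by the monoamine oxidases, was at 0.33. HNMT, which methylates histamine, was at 0.28 and on its next brightest probe set at -0.30. Its dimmer probe sets above background were at 0.38, 0.40 and 0.08, so the probe sets of HNMT did not all agree in direction. SLC6A4, the serotonin transporter, was at -0.34, with -0.71 on its next brightest probe set. The list median was -0.02, or 0.30 over the 4 above background, of which 3 had values above 0. In the supply of flavin cofactors, all 4 genes above background had values above 0, from 0.04 to 0.28, and the median was 0.06 over 5 genes and 0.13 over the 4. FLAD1, which makes FAD from FMN, was at 0.28, with 0.86 on its dimmer probe set.

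Of 11 measured receptors and transcription factors known to act on genes of this group, none passed 2-fold, and the median was -0.03, or -0.05 over the 8 above background. AHR, the aryl hydrocarbon receptor, went from 11.15 with EtOH to 10.50 with PADMA28, a difference of -0.65, and CEBPB, a liver-enriched factor, from 13.56 to 14.31, a difference of 0.75. For ARNT, the partner of AHR, the brightest probe set was at -0.43 and the next at 0.35, so no direction can be given. Whether any of these values, or the lower hepatocyte markers, have a part in the fall of FMO5 was not tested.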

How the data were processed

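RNA pooled from 3 cultures per treatment was measured on 1 array each, EtOH and PADMA28, as the sample labels name them. The authors processed the scans with GCRMA, which models background from the base composition of each probe, normalizes by quantiles and summarizes by median polish, and the deposited values are on the log2 scale. GCRMA 2.28.0 and R 2.15.1 are the versions in the submitters' processing notes. The study's unspecific filter was not applied, because its rule is not stated in the methods.

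Probe sets were named from the platform annotation, with symbols updated through RefSeq: 41097 had 1 gene, 1801 several and 11777 none. A gene is represented by its own probe set with the highest mean. The number of arrays limits the precision. As a yardstick of agreement between probe sets, the gap between the 2 brightest probe sets of a gene was used (median 0.14 log2 units). It is no measure of replicate error, because both probe sets read the same pooled RNA on the same arrays. The 2-fold threshold is that of the study. A fold change with 1 array below background is given against that array's limit. Members and lists were chosen with earlier results of these data known. The genes named were all 9 members, and up to 3 genes per list with the largest difference above background. The rule also took the 3 genes nearest in level to the member that changed most, which are not given because levels of different probe sets cannot be compared. Further list members, and the GC box, were added after values had been seen. Alternatives were 16 or 64 added to the linear values, median centring, lowess with a span of 0.3, repeated quantile normalization, other choices of probe set, filters on low values and other background limits. Sequences come from RefSeq, GRCh38.p14. The steps were tested on simulated data. Values were computed in Python 3.11.15 (pandas 2.3.3, numpy 2.4.6; lowess from statsmodels 0.14.6) and plotted with matplotlib 3.10.9.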

Additional observations from a re-analysis of the deposited data

How the results depend on the processing

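The fall of FMO5 lay between -1.74 and -1.55 under all 9 alternatives for the member differences. In the study's pathway table the fall of FMO5 is larger than on any of its probe sets here, for a reason that is not known. The counts of 0 members more than 2-fold higher and 1 lower were the same under each of these alternatives and under both filters on low values. AOX1 lay between 0.34 and 0.43, and POR between 0.11 and 0.20. With the probe set of largest difference, MAOA was at -0.43 and MAOB at -0.17, the latter on a probe set below background on both arrays. MAOB turned to 0.03 with median centring, which moves all differences up by 0.05, so it has no settled direction. Over all genes, 97 were more than 2-fold higher with 16 added to the linear values and 64 with 64 added, 264 with the probe set of largest difference and 114 with the median over probe sets. More than 2-fold lower were 34 genes with 64 added and 153 with the probe set of largest difference. With 64 added, MOCOS was at 0.996 and thus within 2-fold, while HMOX1 was at 1.82. Median centring took MTARC2 and CYB5R4, and repeated quantile normalization CYP7A1, just past 2-fold. The median of the molybdenum cofactor list lay between 0.23 and 0.32 that of the POR-dependent enzymes between -0.25 and -0.04 and that of flavin supply between 0.02 and 0.11, while the medians of the other 7 lists changed sign under at least 1 alternative, so no direction is given for them. These list values were chosen after seeing the data. The number of members above background was 5 also with limits of 1 or 3 log2 units over the most frequent value and with any probe set counted. Signal below background limits what can be said of FMO1, FMO2, FMO4 and XDH. No paired analysis was possible because each treatment has 1 array and the result comes from no test.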
